A study of Mus musculus with 38 samples.

Results

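The livers described here came from 5 control mice labelled 5 months and given N-nitrosodiethylamine (DEN), each set against a pool of RNA from normal mouse liver. They were chosen by their labels, and account for 5 of 20 mice and 10 of 38 arrays in the series. The series profiled DEN-exposed livers that lacked the receptor c-Met in hepatocytes, and livers that kept it, at 3 and 5 months. All control mice were male B6129 animals that carried 1 copy of an albumin-Cre transgene (Alb-Cre +/-), in which Cre is driven by a promoter active in hepatocytes, and had an intact Met gene. They had received 10 µg of DEN per g of body weight by 1 intraperitoneal injection at 14 days of age. The labels give the 5-month mice an age of 20 weeks, beside a treatment time of 5 months. With the dose at 14 days of age, 20 weeks leaves less than 5 months after it. The 3-month mice, controls and knockouts, were aged 12 weeks. The reference was total RNA pooled from the livers of 5 wild-type male B6129 mice aged 12 weeks, for which the labels name no treatment. The knockout mice differed from the controls by the hepatocyte deletion of Met and received the same dose.

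DEN is activated in hepatocytes by cytochromes P450 to an alkylating agent, and a dose given while the liver still grows leads to liver tumours in male mice months later. The liver also sets much of its expression by the time of day, feeding, sex hormones and inflammation, through regulators such as the clock proteins, the fatty acid sensor PPAR-alpha, the sterol regulators SREBP and the acute phase response. Each comparison with the reference therefore holds DEN, age, the Cre transgene and whatever else set the pool apart, and these cannot be told apart here. The pool counts as 1 control sample, so that its own spread between animals is not part of any test. In these bulk samples, fewer cells of a type and less RNA per cell cannot be told apart either.

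Every mouse was measured on 2 arrays, with the liver in the red dye Cy5 on 1 and in the green dye Cy3 on the other. Values are log2 ratios of liver over reference, after the median of each array was set to 0 and the sign of the liver-in-Cy3 arrays was turned. A mouse has 1 value per probe, the mean of both arrays. The labels do not say which dye is the numerator. Cy5 over Cy3 was taken as likely, the usual convention, and if the ratios run the other way, each direction given here turns round. Ratios give no level, so the presence of liver markers could not be checked. The hepatocyte markers had a median log2 ratio of -0.19 over 23 measured genes. Of these, 0 were called higher and 2 lower (8.7%), beside 23.4% and 24.3% of all genes. The 2 were the apolipoprotein Apob at -0.70 and the haem carrier Hpx at -0.63. The median of the markers was 0.11 in the liver-in-Cy5 arrays and -0.47 in the liver-in-Cy3 arrays, so both orientations differed in sign.

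Turned values of both arrays of a mouse correlated across probes at r = 0.285 in mouse 1, 0.388 in mouse 2, 0.24 in mouse 3, 0.698 in mouse 4 and 0.226 in mouse 5. Liver-in-Cy3 arrays correlated with each other at 0.694 to 0.793, and liver-in-Cy5 arrays at 0.135 to 0.465. The liver-in-Cy5 array of mouse 4 stood apart. It had the highest correlation with its own Cy3 array, and it correlated at -0.609 to -0.476 with the liver-in-Cy5 arrays of 3 months, against -0.039 to 0.195 for the other 4. Its direction was kept as its labels give the dyes: besides the match with its own Cy3 array, it correlated at 0.135 to 0.271 with the other 4 Cy5 arrays of its group, and the stomach gene Tff2, low in every group, was at -3.50 on it. Counts without it, and with its sign turned, stand beside the overall counts, the 3-month comparison and the lists of fatty acid oxidation and lipid synthesis. Most other lists lost nearly all calls with its sign turned. Cytosolic ribosomal proteins, the HGF and Met system and the IGF axis then had 0 genes lower. Collagens and matrix genes had 1 lower, and stellate cells and fibroblasts 2. Exocrine pancreas genes kept 11 lower, and those of stomach and squamous epithelium 6. The means of both orientations correlated at 0.604 across probes, and 73.1% of 36607 probes had the same sign in both.

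**Figure D1:**
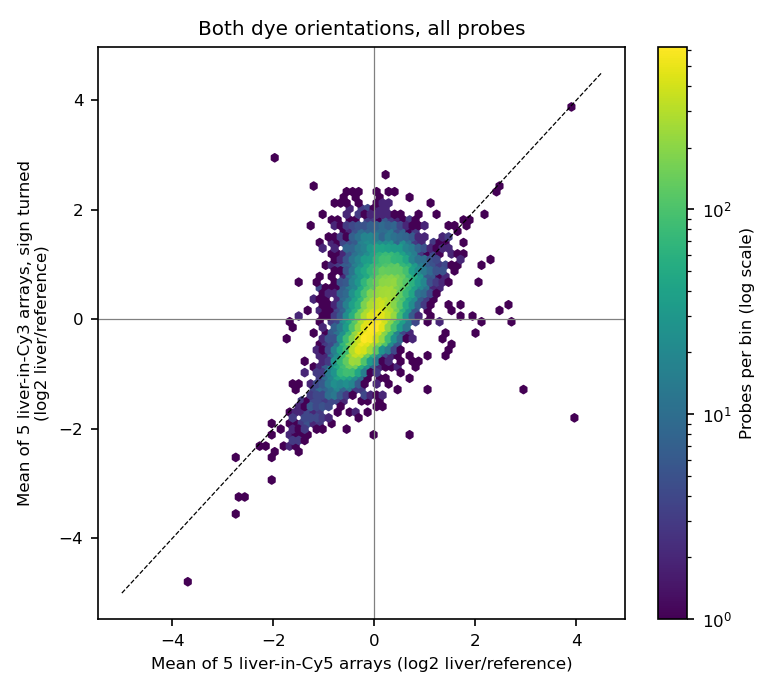
Mean log2 ratio of liver over reference for each of 36607 probes, from the 5 liver-in-Cy5 arrays (horizontal axis) and the 5 liver-in-Cy3 arrays with turned sign (vertical axis). Colour gives probes per bin on a log scale, the dashed line marks equal values, and the probes of largest size lie near that line in both directions.

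Against the reference, 15679 probes were called different (limma, Benjamini-Hochberg adjusted p under 0.05, same sign in both orientations), which is 42.8% of those tested. Of these, 8240 were higher and 7439 lower. With arrays centred as deposited the split was 9535 and 5587, and with the nasal receptor probes described below as the centre it was 3801 and 13108. The median size of a called difference was 0.51, and 557 called probes reached 1 log2 unit, which is a 2-fold ratio. These were 275 probes higher (0.751% of all) and 282 lower (0.77%). Without the liver-in-Cy5 array of mouse 4 the count was 14220, and with its sign turned it was 554, of which 251 were higher and 303 lower. The liver-in-Cy5 arrays alone gave 397 calls and the liver-in-Cy3 arrays alone 21955. Per gene, 4091 of 17501 genes with 1 symbol had a probe called higher and none lower (23.4%), and 4253 the reverse (24.3%). With the size of at least 1, these were 161 genes (0.92%) and 180 genes (1.03%).

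Receptors of the nose gave a measure of calls among probes outside liver functions. Olfactory and vomeronasal receptor probes, 1095 in all, had a median of 0.26. Of them, 33.1% were called higher and 13.3% lower, beside 22.5% and 20.3% of all probes, so calls were not confined to genes of liver functions. The receptor median was -0.04 in the liver-in-Cy5 arrays and 0.50 in the liver-in-Cy3 arrays. At a size of at least 1, 2.19% of the receptor probes were called higher and 0.274% lower, beside 0.751% and 0.77% of all probes. Probes of 1 gene spread as well: 95 probes of the endocytic receptor Lrp1 ranged from -2.22 to 0.35, with 73 called lower, and 61 of the cytoskeletal linker Tln1 from -0.95 to 0.79. Whether such spread has a part in the other results was not tested.

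Of the 15 genes with the largest positive ratios, 6 belonged to the list of fatty acid oxidation and PPAR-alpha targets. Cyp4a14, a microsomal omega-hydroxylase of fatty acids and a classic target of PPAR-alpha, had log2 ratios of 5.38, 4.96, 2.99, 2.34 and 3.67 in mice 1 to 5, a mean of 3.87 ± 1.29 (SD, n = 5) or 14.6-fold (limma, adjusted p = 0.000363). All 10 arrays were above 0. The lowest, mouse 4, had 0.945 on its liver-in-Cy5 array and 3.741 on its liver-in-Cy3 array. Mice 1 and 2 were the highest, and the mean of the lowest mouse still lay more than 2 log2 units above the reference. Its neighbour in function Cyp4a10 had 3.19, 3.56, 1.15, 1.28 and 2.65, a mean of 2.37 ± 1.10 (SD, n = 5; limma, adjusted p = 0.00114), and its other probe gave 2.48. Acot1, a cytosolic thioesterase that frees fatty acids from coenzyme A, had 2.70, 2.75, 1.29, 1.51 and 2.21, a mean of 2.09 ± 0.67. In all 3 genes mice 3 and 4 were the 2 lowest.

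Other genes of this pathway followed at lower size. Cd36, which takes up long-chain fatty acids, had 1.79, 1.98, 0.94, 1.37 and 1.72, a mean of 1.56 ± 0.41 (SD, n = 5) or 2.95-fold. Ehhadh, a bifunctional enzyme of peroxisomal beta-oxidation, averaged 1.45 ± 0.71. Vnn1, a pantetheinase that returns pantothenate from coenzyme A breakdown, had 2.95, 2.80, 0.77, 1.32 and 1.29, a mean of 1.83 ± 0.99 (SD, n = 5). For Vnn1, mice 1 and 2 were separate from the other 3. Crat (carnitine acetyltransferase) averaged 1.16, the peroxisomal thiolase Acaa1b 1.15, the thioesterases Acot4 and Acot2 1.13 and 1.07, and the trifunctional protein subunit Hadha 0.92. The 3 other probes of Crat ranged from -0.63 to 0.48.

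Of 30 measured genes of fatty acid oxidation and PPAR-alpha targets, 16 rose and 1 fell, against 23.4% and 24.3% of all genes, and 10 rose by at least 1. Probes of 2 genes were called both ways, and 11 were not called. The gene that fell was Ppara itself, at -0.37, and Hadhb, the partner subunit of Hadha, had a probe at -0.45. The list median was 0.37, against 0.00 over all genes, and ranged over the mice from -0.06 to 0.79. It was also above 0 in the other groups, at 0.42 in 3-month controls, 0.51 in 3-month knockouts and 0.25 in 5-month knockouts. Without the liver-in-Cy5 array of mouse 4, 21 rose and 0 fell. With values centred on olfactory and vomeronasal receptors the count was 10 higher and 2 lower, and with the sign of that array turned it was 4 higher and 0 lower. Cpt1a, which admits fatty acids to mitochondria, had 0.22, and Pdk4, a kinase that spares glucose, 0.25, and neither passed the test.

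The other genes among these 15 had varied roles. G0s2, an inhibitor of the lipase ATGL, had 1.98, 1.76, 1.93, 1.63 and 1.74, a mean of 1.81 ± 0.14 (SD, n = 5; limma, adjusted p = 2.56e-05). Its mouse values varied the least of these 15 genes, though both arrays of a mouse could differ more. Mouse 2 had 2.369 in liver-in-Cy5 and 1.157 in liver-in-Cy3, and mouse 4 had 0.961 and 2.292. Mfsd2a, a lysophospholipid transporter, averaged 1.60 ± 0.56, with mouse 1 lowest at 0.73. Among drug-metabolising enzymes, Cyp2c39 averaged 1.62 ± 0.85 with mouse 4 lowest at 0.32, and the glucuronosyltransferase Ugt1a9 1.48 ± 0.53, with 2 other probes at 0.17 and 0.18. Further down were Smg9, a factor of nonsense-mediated decay, at 1.76 ± 0.59, Xbp1, a transcription factor of the unfolded protein response, at 1.70 ± 1.17, Ntrk2, a neurotrophin receptor, at 1.51 ± 0.66, and the olfactory receptors Olfr1254 and Olfr186 at 1.64 and 1.61. The other probe of Ntrk2 was at -0.62. Xbp1 had 1.85, 0.74, 3.29, 2.23 and 0.38, and of 30 genes of endoplasmic reticulum stress it was the 1 that rose, while 8 fell (26.7%, near the 24.3% of all genes), among them its activating nuclease Ern1 at -1.38 ± 0.17.

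**Figure D2:**
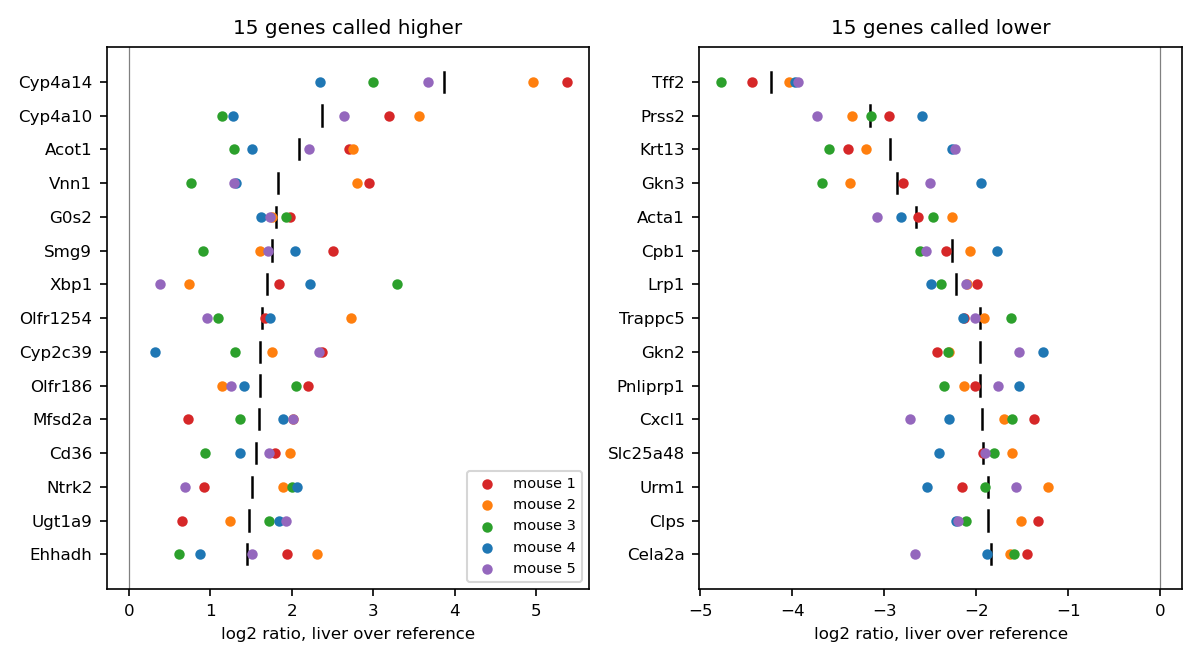
Log2 ratio of liver over reference of each 5-month control mouse (points, coloured by mouse) and their mean (bars) for the 15 genes called higher and the 15 called lower with the largest ratios among genes whose 5 mouse values share 1 sign. Cyp4a14 ranges from 2.34 to 5.38 over the mice, whereas G0s2 stays between 1.63 and 1.98.

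Genes of lipid synthesis were lower. Of 29 measured genes of fatty acid and cholesterol synthesis, 0 rose and 16 fell (55.2%), and 1 had probes called both ways. Of all genes, 23.4% rose and 24.3% fell. The list median was -0.35, and -0.56 to -0.16 in single mice. Fasn, the fatty acid synthase, had -2.02, -2.16, -1.46, -1.36 and -0.70, a mean of -1.54 ± 0.58 (SD, n = 5; limma, adjusted p = 0.000835). Mice 1 and 2, the highest for Cyp4a14, were the lowest for Fasn. Gpam, which starts triglyceride assembly, averaged -0.94 ± 0.24, though its other probe was at 0.42. Fdps, which makes farnesyl diphosphate for sterols, averaged -0.90 ± 0.27, with its 2 other probes at -0.67 and -0.38. The regulator Srebf1 averaged -0.89 ± 0.74, from -1.87 in mouse 1 to 0.14 in mouse 5. Scd1, a desaturase, was at -0.02 and Me1, malic enzyme, at 0.06, and neither passed. Without the liver-in-Cy5 array of mouse 4, 0 rose and 15 fell. With its sign turned none of the list was called, and in the liver-in-Cy5 arrays alone 1 fell.

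Promoters of genes from both lists are shown because these lists hold the largest shares called higher and lower among the metabolic lists. They are RefSeq sequences of build GRCm38.p6, each of 300 bases that span the gene start and lie mostly before it, read 5′ to 3′ on the gene's strand. Capitals mark CCAAT, the box bound by NF-Y, on either strand (read as ATTGG on the other).
Ehhadh, minus strand of chr16:21787785-21788084: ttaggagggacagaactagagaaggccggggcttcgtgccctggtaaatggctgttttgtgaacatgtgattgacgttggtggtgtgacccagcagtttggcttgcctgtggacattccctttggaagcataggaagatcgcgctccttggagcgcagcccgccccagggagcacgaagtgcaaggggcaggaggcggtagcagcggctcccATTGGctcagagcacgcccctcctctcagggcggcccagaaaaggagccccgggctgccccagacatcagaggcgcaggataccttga
Fasn, minus strand of chr11:120824498-120824797: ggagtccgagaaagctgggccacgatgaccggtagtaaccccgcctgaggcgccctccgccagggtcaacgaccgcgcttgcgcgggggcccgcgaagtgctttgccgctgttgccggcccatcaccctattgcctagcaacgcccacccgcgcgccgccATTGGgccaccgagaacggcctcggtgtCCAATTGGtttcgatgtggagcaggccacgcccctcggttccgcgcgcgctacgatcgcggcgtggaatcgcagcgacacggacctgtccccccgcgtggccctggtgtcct
Idi1, plus strand of chr13:8885356-8885655: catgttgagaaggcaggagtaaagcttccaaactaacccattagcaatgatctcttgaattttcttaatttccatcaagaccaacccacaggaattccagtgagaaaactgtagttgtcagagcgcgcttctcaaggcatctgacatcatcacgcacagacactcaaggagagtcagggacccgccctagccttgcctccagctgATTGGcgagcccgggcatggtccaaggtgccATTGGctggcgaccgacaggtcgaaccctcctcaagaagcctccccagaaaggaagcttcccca
Ehhadh held 1 such box, Idi1, an isomerase of the sterol pathway, held 2, and Fasn held 3, of which 2 overlap. The box stood in 13 of 14 promoters of lipid synthesis genes called lower (92.9%) and in 7 of 13 of fatty acid oxidation genes called higher (53.8%). It also stood in 10 of 12 promoters of clock genes called either way (83.3%). Of 27025 genes with a promoter, 11096 had it (41.1%). PPAR half-sites AGGNCA, repeated in the same direction 1 base apart, were in 0 of those 13 and 0 of those 14, against 0.451% of all. The sterol element bound by SREBP was likewise in 0 of 13 and 0 of 14, against 0.27% of all. Both motifs were searched on both strands, and these windows are short. The set of promoters did not cover all called genes of these lists, which were 16 higher and 16 lower. It held none for Cyp4a14, Cyp4a10, Vnn1 or Fdps, so these were not searched.

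The largest negative ratios included genes best known from stomach, squamous epithelium and pancreas. Tff2, a peptide of gastric mucus, had -4.43, -4.04, -4.77, -3.97 and -3.94, a mean of -4.23 ± 0.36 (SD, n = 5), 18.8-fold below the reference (limma, adjusted p = 1.02e-06). Gkn3 and Gkn2, gastrokines of the stomach lining, averaged -2.86 ± 0.69 and -1.96 ± 0.52. Krt13, a keratin of squamous epithelium, averaged -2.94 ± 0.65, with its other probe at -0.85. The pancreatic trypsinogen Prss2 had -2.95, -3.36, -3.14, -2.59 and -3.73, a mean of -3.15 ± 0.43 (SD, n = 5). Cpb1 (carboxypeptidase B) averaged -2.27 ± 0.35, Pnliprp1 (a lipase-related protein) -1.96 ± 0.32, Clps (colipase) -1.87 ± 0.42 and Cela2a (an elastase) -1.84 ± 0.49. All 5 mice and all 10 arrays were below 0 for each of these genes.

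These genes were low in every group of the series. A list of 26 measured exocrine pancreas genes was drawn up after these values had been seen. It had 19 lower (73.1%) and 1 higher (3.85%), the chymotrypsin Ctrc at 0.65. Its median was -0.76 in 5-month controls, -1.03 in 3-month controls, -1.02 in 3-month knockouts and -0.99 in 5-month knockouts. Of 20 genes of stomach and squamous epithelium, 11 were lower (55%) and 2 higher (10%). Their medians in the same order were -0.53, -0.62, -0.78 and -0.62. Of all genes, 24.3% were lower and 23.4% higher. Tff2 averaged -3.67 in 3-month controls, -3.75 in 3-month knockouts and -3.995 in 5-month knockouts, and Prss2 -2.61, -3.07 and -3.97. The groups share the reference pool, and what the pool held and what the livers lacked cannot be told apart. Of 13 measured markers of adipocytes and skeletal muscle, 6 fell (46.2%) and 2 rose (15.4%). The 2 that rose were the lipid droplet protein Plin1 at 0.78 and leptin, Lep, at 0.39. The muscle actin Acta1 was at -2.65 ± 0.31 and the myosin Myh4 at -1.42 ± 0.68, and Acta1 averaged -1.07 ± 2.12 in 3-month controls.

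The other genes among the 15 lowest were no markers of those organs. Cxcl1, a neutrophil chemokine, averaged -1.94 ± 0.56, and mice 4 and 5 were lowest at -2.30 and -2.72. Trappc5, a subunit of a vesicle tethering complex, averaged -1.96 ± 0.21, the mitochondrial carrier Slc25a48 -1.93 ± 0.29 and Urm1, a ubiquitin-like modifier, -1.88 ± 0.51. The other probe of Urm1 was at 0.09. The lowest Lrp1 probe was at -2.22 ± 0.21.

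Translation and growth factor genes fell in part. Of all genes, 24.3% fell and 23.4% rose. Of 64 measured cytosolic ribosomal proteins, 38 fell (59.4%), 7 rose (10.9%) and 6 fell by at least 1, with a median of -0.35. That median was -0.78 in mouse 4 and between -0.25 and -0.19 in the other mice. It was 0.42 in 3-month controls and 0.05 in 5-month knockouts. Rpl35 averaged -1.14 ± 0.29 and Rpl32 -1.13 ± 0.33, and in both mouse 4 was lowest. Among growth factor receptors, Egfr had -1.63, -1.25, -1.20, -1.70 and -1.48, a mean of -1.45 ± 0.22 (SD, n = 5; limma, adjusted p = 8.99e-05), and its other probe was at -1.18. Met, the receptor deleted in the knockouts, had -1.34, -0.62, -0.87, -0.77 and -0.41, a mean of -0.80 ± 0.35. Met averaged -0.85 in 5-month knockouts, so this probe did not separate the genotypes and checks nothing of the deletion. Of 25 measured genes of the HGF and Met system, 11 fell (44%), among them the HGF activator inhibitor Spint1 at -0.77. The 2 that rose (8%) were the proteoglycan Sdc1 at 0.67 and the protease inhibitor Spint2 at 0.49. Igfbp1, an insulin-repressed binding protein, averaged -1.63 ± 0.51. Of 22 genes of the IGF axis 11 fell (50%) and 1 rose (4.55%), Igfbp5 at 0.73.

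Tumour and cell cycle lists had members on both sides in near equal number. Damage genes had more higher than lower, but not clearly so in every setting given below. Afp, the fetal serum protein used as a liver tumour marker, had 0.79, 0.92, 0.58, 0.86 and 0.47, a mean of 0.72 ± 0.19 (SD, n = 5) or 1.65-fold (limma, adjusted p = 0.00125). H19, a fetal noncoding RNA, had -0.06, 1.31, 0.29, 0.51 and 0.22, a mean of 0.46 ± 0.52, and did not pass (limma, adjusted p = 0.0531). Of 25 measured fetal and liver tumour markers 6 rose (24%) and 6 fell (24%), near the 23.4% and 24.3% of all genes. Of 31 cell cycle genes 9 rose (29%), 10 fell (32.3%) and 4 had probes called both ways. The proliferation marker Mki67 was at 0.69, the mitotic kinase Cdk1 at 0.63 and topoisomerase Top2a at 0.62, while the mitotic kinase Aurkb was at -1.02 and the replication helicase subunit Mcm3 at -0.997. Of 26 p53 targets and DNA damage genes 11 rose (42.3%) and 5 fell (19.2%), against 23.4% and 24.3% of all genes. Without mouse 1 this was 6 and 5, and centred on olfactory and vomeronasal receptors 4 rose and 9 fell. Without mouse 3 it was 8 and 6, and in the liver-in-Cy5 arrays alone 1 and 1. With the sign of the liver-in-Cy5 array of mouse 4 turned, 1 rose and 0 fell. The list median was -0.12 in mouse 4 and 0.05 to 0.16 in the other mice. Members of the list included Gadd45b at 1.01 and Gadd45g at -1.03. The p53 target Cdkn1a, an inhibitor of the cell cycle, was at 0.17 and did not pass.

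Matrix and stromal genes were lower more often than higher. Of all genes, 24.3% were lower and 23.4% higher. Of 38 measured collagen and matrix genes 14 fell (36.8%) and 5 rose (13.2%). Their median was -0.23, with a narrow range over the mice of -0.27 to -0.23. Col3a1, a fibrillar collagen, averaged -1.53 ± 0.23, with its other probe at -1.09. Of 23 markers of stellate cells and fibroblasts 11 fell (47.8%) and 1 rose (4.35%), Bmp10 at 0.45. Smooth muscle actin Acta2 was at -1.15, though its 3 other probes ranged from -0.14 to 0.82. Of 22 Kupffer cell and macrophage markers 8 fell (36.4%) and 1 rose (4.55%). Adgre1 (F4/80) was at -0.78 and the Kupffer lectin Clec4f at -0.52, and lysozyme Lyz2 had probes on both sides, from -0.67 to 1.05. Among 17 markers of B and plasma cells 5 rose (29.4%) and 3 fell (17.6%), near the 23.4% and 24.3% of all genes. Ighm, an antibody heavy chain, had 0.63, 0.40, 0.48, 2.10 and 0.77, and the light chain Igkc 0.94, 0.43, 0.55, 1.87 and 0.46, so that mouse 4 was highest in both.

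**Figure D3:**
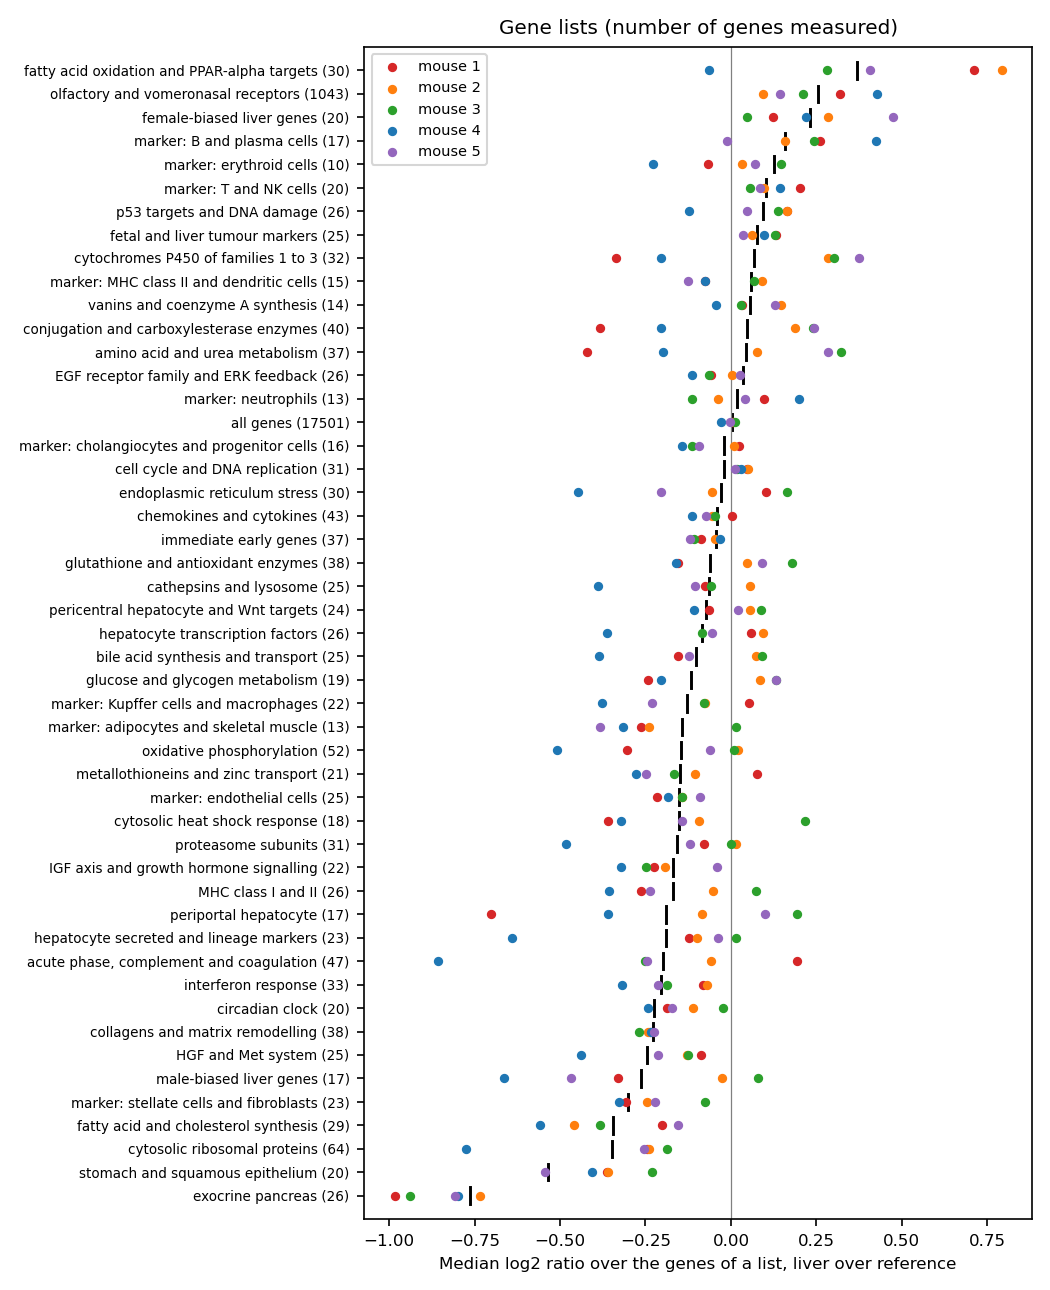
Median log2 ratio of liver over reference over the genes of each list, for each 5-month control mouse (points) and for the mean of the mice (bars), ordered by the latter, with the number of genes measured in brackets. Fatty acid oxidation genes are at the top with a median of 0.37, and exocrine pancreas genes at the bottom with -0.76. The olfactory and vomeronasal receptors lie at 0.25 per gene.

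The 10 genes that varied most between mice, while both arrays of a mouse gave like values, included 3 of the acute phase list, Saa1, Lcn2 and Apcs. Saa1, a serum amyloid A apolipoprotein made by hepatocytes in inflammation, had 0.34, -1.44, -3.68, -3.71 and -4.09 (SD 1.91), a mean of -2.52. Lcn2, an iron-sequestering acute phase protein, had 4.20, 0.33, -1.37, -1.25 and -2.53 (SD 2.62). Apcs, the amyloid P component, had 1.59, -1.92, -2.91, -2.47 and -1.91. Lrg1, a secreted glycoprotein of the acute phase, had 2.42, 0.78, -0.65, -1.49 and -1.46, and Fgl1, a hepatocyte protein related to fibrinogen, 1.48, -0.03, -1.82, -1.86 and -2.35. In these 5 genes mouse 1 was highest. Mouse 2 was the second highest in all but Apcs, where mouse 5 was next.

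The metallothionein Mt2, a zinc-binding protein, followed the order of Lcn2, with 2.49, 1.51, -1.22, -1.15 and -2.28, and Mt1 had 1.99, 1.14, -1.13, -1.06 and -1.77. Saa2 had 0.46, -1.26, -2.69, -3.50 and -3.18, and Saa3 0.58, -0.51, -2.29, -3.41 and -2.79. Etnppl, a phospholyase of phosphoethanolamine, ran the other way, with -2.49 in mouse 1 and -0.39 to 0.80 in the others. The rest of the 10 most variable were Bcl6b, Defb36 and 1700020A23Rik, each highest in mouse 1 at 2.71, 2.61 and 2.10. Of 47 measured acute phase, complement and coagulation genes 0 rose and 15 fell (31.9%) in the mean of 5 mice, against 23.4% and 24.3% of all genes. Their median was 0.03 in the liver-in-Cy5 arrays and -0.47 in the liver-in-Cy3 arrays. Without mouse 1, 19 fell. The median of that list was 0.19 in mouse 1 and -0.86 in mouse 4. Of neutrophil markers, 13 in all, 3 rose and 3 fell (23.1% each), near the shares of all genes. Their median over the mice ranged from -0.11 to 0.20.

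**Figure D4:**
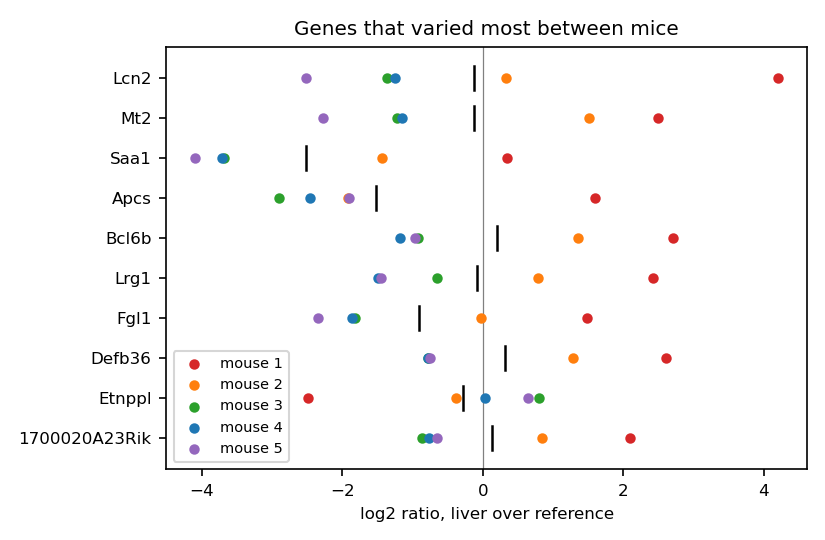
Log2 ratio of liver over reference in each 5-month control mouse (points) and the mean (bars) for the 10 genes with the largest SD over the mice among those whose arrays of opposite dye agreed within a mouse. Mouse 1 is highest for 9 of the 10 genes, with Lcn2 at 4.20, and lowest for Etnppl at -2.49.

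Set against 3-month controls, 6423 probes differed (17.5%; limma on all 20 mice, adjusted p under 0.05), 1612 higher at 5 months and 4811 lower. Both groups were measured against the same pool, and each lay in array series of its own, meaning runs of consecutive array numbers, so time and array series cannot be told apart. With arrays centred as deposited, 5607 differed, 2918 higher and 2689 lower. Leaving out the liver-in-Cy5 array of mouse 4 gave 5526, turning its sign gave 2870, and leaving out that mouse gave 3607. The largest rises among probes also called against the reference were in the clock genes Dbp, Wee1 and Usp2, followed by Ttc30a1 and Cyp4a14. Dbp, a clock output factor, went from -1.93 ± 0.83 at 3 months to 0.49 ± 0.24 at 5 months, a difference of 2.42 ± 0.42 (SE; limma, adjusted p = 0.000942). Wee1, a clock-driven kinase that restrains mitosis, went from -1.10 ± 0.23 to 1.09 ± 0.37, and the deubiquitinase Usp2 from -1.01 to 1.06 by 1 probe and from -0.63 to 1.07 by another. Cyp4a14 differed by 2.01 ± 0.67 (limma, adjusted p = 0.0426), and Ttc30a1, a ciliary transport protein, by 2.11. Vnn1 was at 0.35 ± 0.29 at 3 months, a difference of 1.48 ± 0.39 (limma, adjusted p = 0.0134).

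The largest falls were in Tubb2a, a beta-tubulin, from 2.37 ± 0.21 to -0.71 ± 0.16, in the mitochondrial unfoldase Clpx, from 1.39 ± 0.14 to -0.88 ± 0.27, and in Ddc, an aromatic amino acid decarboxylase, from 1.08 to -0.94. Cyp26a1, which breaks down retinoic acid, differed by -1.89 and Chka, a choline kinase, by -1.82. In all 5 genes every 3-month control lay above every 5-month control. They were chosen as the largest falls of this same comparison, so this separation was in part fixed in advance. Against the reference, 5 of 20 clock genes rose (25%) and 9 fell (45%), beside 23.4% and 24.3% of all genes. Per1, a repressor of the clock, had -1.49, -1.40, -1.59, -1.57 and -1.54, the smallest SD (0.07) of the 20 clock genes, and was at -0.33 ± 0.10 at 3 months. The 5 that rose were Wee1, Usp2, Dbp and the repressors Cry1 (0.71) and Cry2 (0.35). The time of day of sampling was not part of the labels used here.

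A promoter of Per1, 1 of 2 listed for it, is shown as an example of a clock gene with an E-box. Capitals mark CACGTG, the palindromic E-box bound by CLOCK and its partner.
Per1, plus strand of chr11:69098699-69098998: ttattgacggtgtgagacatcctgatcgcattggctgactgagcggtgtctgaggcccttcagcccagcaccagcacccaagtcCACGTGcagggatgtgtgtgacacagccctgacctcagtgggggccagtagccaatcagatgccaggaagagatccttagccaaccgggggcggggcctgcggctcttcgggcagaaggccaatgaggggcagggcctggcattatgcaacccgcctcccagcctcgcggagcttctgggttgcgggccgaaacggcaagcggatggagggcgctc
This E-box stood in 3 of 12 promoters of clock genes called either way (25%) and in 2187 of 27025 genes with a promoter (8.09%).

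Against 5-month knockouts, 37 probes differed (0.101%; limma on all 20 mice, adjusted p under 0.05), 2 higher in controls and 35 lower. Of the 37, 23 were also called against the reference, beside 42.8% of all probes. Both tests use the same control values, so part of this overlap is built in. The replicate block gave 7 calls, 6 of them among the 37. The array series as a covariate gave 0 by limma, with 2487 probes at an unadjusted p under 0.05, and the methods' t-test without that covariate gave 3 after adjustment, 0 of them among the 37. Leaving out control 4 gave 7, all among the 37. Without knockout 3, 12 were called, and without control 3, 90. Knockouts 2 and 3 had 1 array each, and the dye effect of the other 5-month mice was subtracted from it. Vnn1 was the 1 named gene higher in controls, 1.83 ± 0.99 against -0.96 ± 0.78, a difference of 2.78 ± 0.39 (SE; limma, adjusted p = 0.0109). Gbp4, an interferon-induced GTPase, had -1.16, -1.74, -1.07, -1.59 and -1.27 in the controls, a mean of -1.36 ± 0.29, against 0.04 ± 0.29 in knockouts (limma, adjusted p = 0.0109). It was also near the reference in 3-month controls, at 0.02 ± 0.42. Dusp1, a phosphatase of MAP kinases, was at -0.92 ± 0.31 against 0.50 ± 0.57, the lipid transporter Abca3 at -1.22 ± 0.41 against 0.25 ± 0.58, the secreted protein Olfm1 at -1.48 ± 0.65 against -0.06 ± 0.41, and Veph1 at -1.04 ± 0.87 against 0.87 ± 0.22. The other probes of Olfm1 ranged from -0.68 to 0.03 and those of Veph1 from -0.23 to -0.21 against the reference. Cyp4a14 did not pass between genotypes, at 3.87 in controls and 2.32 in knockouts (limma, adjusted p = 0.43).

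**Figure D5:**
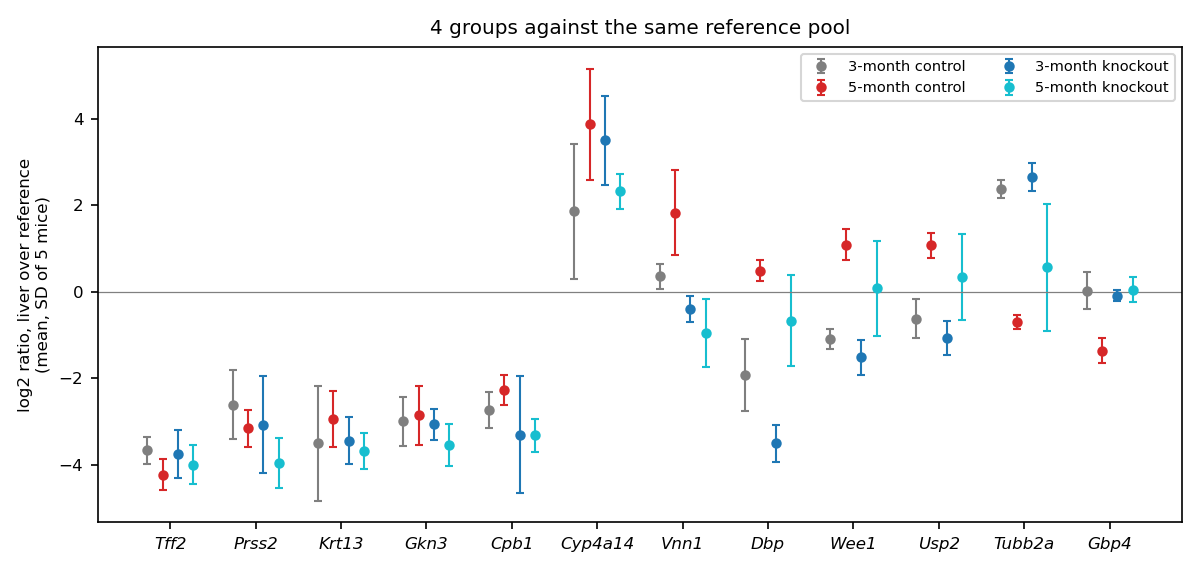
Mean log2 ratio of liver over reference, with the SD of 5 mice as bars, in the 4 groups for 12 genes, all measured against the same pool. Tff2, Prss2, Krt13, Gkn3 and Cpb1 are below -2 in every group, while Dbp, Wee1 and Tubb2a differ between 3-month and 5-month controls and Vnn1 and Gbp4 between 5-month controls and knockouts.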

How the data were processed

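RNA from snap-frozen liver, extracted by CsCl gradient per the labels' protocols, was hybridised with pooled reference RNA to 2-colour arrays, each mouse on 2 arrays of opposite dye. Per the series' design text the authors scanned with a GenePix 4000A, excluded invalid features and normalized arrays to the 50th percentile in mAdb. The deposited unit is the log2 ratio of an array's dyes, and the base follows from its step sizes. Background handling, spot averaging and the numerator dye are not given in the labels. The deposited columns of the 10 arrays had medians from -0.27 to 0.09, and 36607 probes had no missing value. The number of arrays limits the precision.

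Each array was centred on its median, liver-in-Cy3 signs were turned, and both arrays of a mouse averaged. limma 3.58.1 in R 4.3.3 (lmFit, eBayes) tested the mean of 5 mice against 0, and group contrasts in a model of all 20 mice. Probes passed at a Benjamini-Hochberg adjusted p under 0.05 over all probes and, against the reference, with the same sign in both orientations. No filter on dim probes was possible. Both models were tested on simulated data. Platform annotation gave 1 symbol to 26926 probes, several to 203 and none listed to 9478. A gene's value is the median of its probes, and a named gene is shown by its probe with the smallest p. Named genes were the 15 of largest ratio in each direction with all mice of 1 sign, the 3 largest called members of each list, Met, Afp, H19 and Vnn1, the 10 most variable between mice, and the 5 largest differences each way between groups. Other list members, named to describe a list, were chosen after their values were seen.

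The members and lists were chosen with earlier results of these data known. The lists hold 1199 symbols, of which 1105 were measured. The labels do not say whether a mouse's arrays share an extract, and p-values measure the spread between these 5 mice. Same-numbered mice of different groups are different animals. Alternatives were other centring, quantile normalisation, single orientations, left-out mice and arrays, a robust fit, the replicate block, array series as a covariate and the methods' t-test.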

Additional observations from a re-analysis of the deposited data

Results flagged for a closer look

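Of 164 named genes, 8 had 1 mouse far from the other 4, and chance alone gives this in about 1 of 20 groups. In mouse 1, Gstt3, a glutathione transferase, was at -0.024 against 1.33 to 1.55 in the others, and Apcs at 1.59 against -2.91 to -1.91. In mouse 4, the ribosomal protein genes Rpl35, Rpl32 and Rps27 were at -1.65, -1.71 and -1.498, against -1.09 to -0.94, -1.04 to -0.94 and -0.94 to -0.87. In the same mouse Spry1, an inhibitor of growth factor signalling, was at -1.35 against -0.71 to -0.46, and Ighm at 2.10 against 0.40 to 0.77. In mouse 3, the immediate early gene Egr1 was at -0.31 against -0.90 to -0.74. Mouse 4 also had the widest spread of values over all probes, with an SD of 0.665 against 0.381 to 0.545, and its part in these values was not tested.

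The log2 ratio to the reference differed between 5-month and 3-month controls (limma, adjusted p under 0.05) in 19 genes named for their size or for a group difference. Of all probes, 17.5% differed. Some of the 19, such as Dbp and Tubb2a, were named because they passed this same test, so part of the count was fixed in advance. Usp2, described above, also passed and is not counted among the 19. The difference was positive for Dbp (2.42), Wee1 (2.18), Ttc30a1 (2.11), Cyp4a14 (2.01), Olfr1254 (1.96), Smg9 (1.83) and Vnn1 (1.48). It was negative for Tubb2a (-3.08), Clpx (-2.27), Ddc (-2.02), Cyp26a1 (-1.89), Chka (-1.82), Abca3 (-1.57), Trappc5 (-1.47), Veph1 (-1.47), Slc25a48 (-1.46), Urm1 (-1.43), Gbp4 (-1.38) and Olfm1 (-1.05). Time and array series cannot be told apart in these differences.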

How the results depend on the processing

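The count of 15679 probes against the reference stayed within 1.5 times under the deposited centring, quantile normalisation, a robust fit, either rule on orientations short of all 10 arrays, the liver-in-Cy3 arrays alone and each left-out mouse (12545 to 13815). Centring on olfactory and vomeronasal receptors gave 3801 higher and 13108 lower, and the fit of all 20 mice 4138 higher. The same sign on all 10 arrays left 5697 (2358 higher, 3339 lower). Liver-in-Cy5 arrays alone gave 397 (148, 249). The methods' t-test gave 1527 (650, 877) unadjusted and 8780 (4279, 4501) after Benjamini-Hochberg. A size of at least 1 left 557 (275, 282), and turning the sign of the Cy5 array of control 4 gave 554 (251, 303). The receptor centring, the size and the turned sign were chosen after seeing the data. The cause was not tested.

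Between 5-month and 3-month controls, the turned sign gave 2870 and the methods' t-test 1534 unadjusted and 3926 adjusted, and left-out mice gave 3607 to 7646. Between 5-month controls and knockouts, 5-month mice alone gave 6, the turned sign 3, mice without knockouts 2 and 3 22, array series as a covariate 0, and the methods' t-test 193 unadjusted and 3 adjusted, with 7 to 90 for left-out mice. The replicate block gave 5748 and 7 calls in these comparisons. Same-numbered mice did not deviate together (r = -0.277 to 0.108), so the numbers do not pair the mice.

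Of the 164 named genes, 105 lost their call in Cy5 arrays alone, 121 with the turned sign, 118 under the unadjusted methods' t-test and 45 where all 10 arrays had to share the sign. Receptor centring moved 37 list medians beyond the spread between mice, among them that of p53 targets from 0.10 to -0.15 and of cytochromes P450 from 0.07 to -0.18. The named genes whose sign turned varied between mice and were not called. Under receptor centring Bcl6b was at -0.045 and 1700020A23Rik at -0.111. In Cy5 arrays alone Lcn2 was at 0.194, Mt2 at 0.244 and Lrg1 at 0.274, and in Cy3 arrays alone 1700020A23Rik at -0.055. Without the Cy5 array of control 4, Mt2 was at 0.031 and Lrg1 at 0.014, and with its sign turned Lcn2, Mt2 and Lrg1 were at 0.074, 0.154 and 0.223. Over left-out mice Lcn2 ranged from -1.204 to 0.478, Mt2 from -0.787 to 0.405, Lrg1 from -0.706 to 0.273, Bcl6b from -0.431 to 0.539, Defb36 from -0.258 to 0.59, Etnppl from -0.55 to 0.272 and 1700020A23Rik from -0.362 to 0.382.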
